A study of Homo sapiens with 6 samples.

Results

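Cohesin and condensin are ring-shaped protein complexes that fold and hold chromosomes, and the transcripts of their subunits were followed in the bladder carcinoma cell line T24 after a hairpin was directed at DLGAP5, a spindle microtubule protein of mitosis. The genes were 10 rows of the deposited expression table, matched by gene name: SMC1A, SMC3, RAD21, STAG1 and STAG2 of cohesin and SMC2, SMC4, NCAPD2, NCAPG and NCAPH of condensin I, out of 58825 genes in all. The libraries carried a hairpin against DLGAP5 (shDLGAP5-1, 3 libraries) or a control hairpin (shNC-1, 3 libraries, labelled wild type). All cells were grown in the same medium with fetal bovine serum and antibiotics. The groups rest on a single hairpin each in a single line, and the labels do not say whether the 3 libraries of a group came from separate cultures, and a p-value therefore speaks only of the scatter among these 6 libraries, which may be technical.

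Both complexes are built on a pair of SMC proteins, long coiled coils with an ATPase head at one end, closed by a kleisin subunit and decorated by subunits with HEAT repeats. Cohesin (SMC1A, SMC3, the kleisin RAD21 and either STAG1 or STAG2) holds sister chromatids together from S phase to anaphase and forms loops in interphase chromatin. Condensin (SMC2 and SMC4 with the kleisin NCAPH and the HEAT subunits NCAPD2 and NCAPG in condensin I) compacts chromosomes for mitosis. STAG2 is often inactivated by mutation in bladder carcinoma.

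Levels were taken as FPKM, fragments per kilobase of transcript scaled to library size, and used as deposited. Totals ran from 413001 to 487559 FPKM per library, and the smallest repeated step of single-exon genes put the depth at 13700000, 13700000 and 18100000 fragments in shDLGAP5-1 replicates 1 to 3 and at 21500000, 27400000 and 24700000 in shNC-1 replicates 1 to 3, as approximations. At these depths only 25.6% to 36.2% of low values per library lay within 0.1 of a whole fragment, so the depths are uncertain. By them and the longest annotated transcript, the thinnest value among the 10 subunits, NCAPH in shDLGAP5-1 replicate 1, rested on about 410 fragments. The replicate numbers of shDLGAP5-1 are those at the end of the column names. DLGAP5 averaged 5.51 ± 1.80 FPKM in the shDLGAP5-1 libraries and 31.8 ± 1.83 FPKM in the shNC-1 libraries (SD, n = 3 each), lower in every shDLGAP5-1 library. Of 12 urothelial and epithelial markers, 6 to 8 reached 1 FPKM in each library, led by KRT7, KRT8, KRT18 and CD44, while UPK1B and UPK2 stayed below 1 FPKM in all 6 and UPK3A was at 2.28 FPKM in shDLGAP5-1 replicate 3 and listed at 0 in the other 5. A list of 12 leukocyte markers summed to 770 FPKM in shDLGAP5-1 replicate 3, of which LYZ made up 686 FPKM, with PTPRC at 7.03 FPKM, against sums of 10.0 to 32.8 FPKM in the other 5 libraries; CD3E and MS4A1 were listed at 0 throughout. Replicates 1 and 2 of shNC-1 were the closest pair, with a median absolute difference of 0.09 on the log2 scale over 8627 genes, against 0.16 to 0.27 for the other pairs within a group.

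The promoters of the condensin I genes are shown because all 5 of these genes were lower in shDLGAP5-1 cells (below). Each window runs from 250 bases before to 50 bases after the RefSeq start in GRCh38.p14 and is written 5′ to 3′ on the strand of the gene. Capitals mark matches on either strand to CCAAT, to the cell cycle element CHR (TTTGAA or TTCGAA) or to an E2F core (the word TTTCCCG, the word TTTCGCG, the word TTTGCCG or the word TTTGGCG). None of the matches in these windows overlaps another.
SMC2, chr9:104094059-104094358, plus strand: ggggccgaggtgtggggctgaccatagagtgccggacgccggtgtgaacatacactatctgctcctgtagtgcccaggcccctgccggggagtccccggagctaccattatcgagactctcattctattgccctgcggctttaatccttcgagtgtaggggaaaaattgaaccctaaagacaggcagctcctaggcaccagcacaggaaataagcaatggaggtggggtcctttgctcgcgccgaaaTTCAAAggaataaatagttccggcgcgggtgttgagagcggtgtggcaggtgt
SMC4, chr3:160399400-160399699, plus strand: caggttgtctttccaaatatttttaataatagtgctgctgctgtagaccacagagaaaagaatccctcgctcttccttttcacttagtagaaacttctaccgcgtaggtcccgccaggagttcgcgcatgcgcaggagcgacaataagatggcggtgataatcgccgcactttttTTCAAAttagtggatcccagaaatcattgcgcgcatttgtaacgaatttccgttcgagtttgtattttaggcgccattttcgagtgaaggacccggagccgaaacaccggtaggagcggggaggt
NCAPD2, chr12:6493852-6494151, plus strand: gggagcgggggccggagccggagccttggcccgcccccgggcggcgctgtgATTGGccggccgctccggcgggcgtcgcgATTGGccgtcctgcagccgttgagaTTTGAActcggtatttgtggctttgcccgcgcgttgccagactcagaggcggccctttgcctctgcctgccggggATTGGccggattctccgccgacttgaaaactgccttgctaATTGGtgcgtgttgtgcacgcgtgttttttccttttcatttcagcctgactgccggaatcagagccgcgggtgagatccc
NCAPG, chr4:17810729-17811028, plus strand: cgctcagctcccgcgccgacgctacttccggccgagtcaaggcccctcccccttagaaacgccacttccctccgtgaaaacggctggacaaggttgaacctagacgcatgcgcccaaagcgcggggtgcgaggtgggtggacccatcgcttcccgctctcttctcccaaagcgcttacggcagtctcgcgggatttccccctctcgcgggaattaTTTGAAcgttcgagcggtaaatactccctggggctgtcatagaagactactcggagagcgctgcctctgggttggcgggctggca
NCAPH, chr2:96335516-96335815, plus strand: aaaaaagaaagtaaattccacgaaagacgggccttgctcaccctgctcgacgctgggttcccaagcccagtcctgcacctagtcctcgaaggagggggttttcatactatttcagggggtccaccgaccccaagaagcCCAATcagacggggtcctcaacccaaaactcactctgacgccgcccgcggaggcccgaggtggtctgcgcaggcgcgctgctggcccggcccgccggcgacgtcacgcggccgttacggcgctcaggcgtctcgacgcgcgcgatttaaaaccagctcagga

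A CHR word was found in 4 of the 5 condensin I windows, all but that of NCAPH. Of 4 cohesin windows 1 held it, that of SMC3, and no window was available for RAD21. Over 35116 RefSeq promoter windows of the same length 16.4% hold a CHR word. Among the related genes (below), NCAPG2, CDCA5, ESPL1, PLK1, BUB1, KIF4A and MKI67, which fell, also hold it. So do PDS5B, CTCF, SGO1, TOP2A and CDK1, which did not pass the test. CCNB1, AURKB and SGO2 fell and hold none, and no window was available for EID3, which also fell. Whether the word goes with the change was not tested. Counting the start base as 0, the CHR word began at position -3 in SMC2, -75 in SMC4, -145 in NCAPD2 and -35 in NCAPG. CCAAT was found in 2 of the 5 condensin I windows, with 4 copies in NCAPD2 and 1 in NCAPH, and in 2 of the 4 cohesin windows, STAG1 and STAG2, against 34.6% of all windows. An E2F core was found in 0 of the 5 condensin I windows and in 2 of the 4 cohesin windows, SMC1A and STAG1, against 8.7% of all windows. The RefSeq start lies 376 bases inside the start given by the deposited table for SMC4, 746 bases inside it for NCAPD2 and 49 bases inside it for SMC2, and matches it for NCAPG and NCAPH. A match is a run of letters and not a shown binding site.

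All 5 condensin I genes were lower in shDLGAP5-1 cells, and 0 of the 5 cohesin genes passed the test in either direction. The test covered the 12714 genes that reached 1 FPKM in 3 or more libraries, all 10 subunits among them. Of these, 9.52% were called lower, 15.3% higher and 24.8% in either direction by limma on log2(FPKM + 1), at a Benjamini-Hochberg adjusted p under 0.05 over all tested genes. The condensin I fold changes ran from -0.998 to -0.39 on the log2 scale, with a median of -0.58, and the cohesin ones from -1.40 to 0.09, with a median of -0.32, where all tested genes had a median of 0.03. In 7 of the 10 subunits every shDLGAP5-1 library lay below every shNC-1 library and in 1 every shDLGAP5-1 library lay above, which 18.3% and 25.6% of all tested genes also did (43.9% in either direction). Exact two-sided permutation tests of the FPKM gave p = 0.1 for these 8, the smallest that 3 against 3 libraries allow. In bulk RNA, fewer cells of a type, such as cells in mitosis, and less RNA per cell cannot be told apart.

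**Figure D1:**
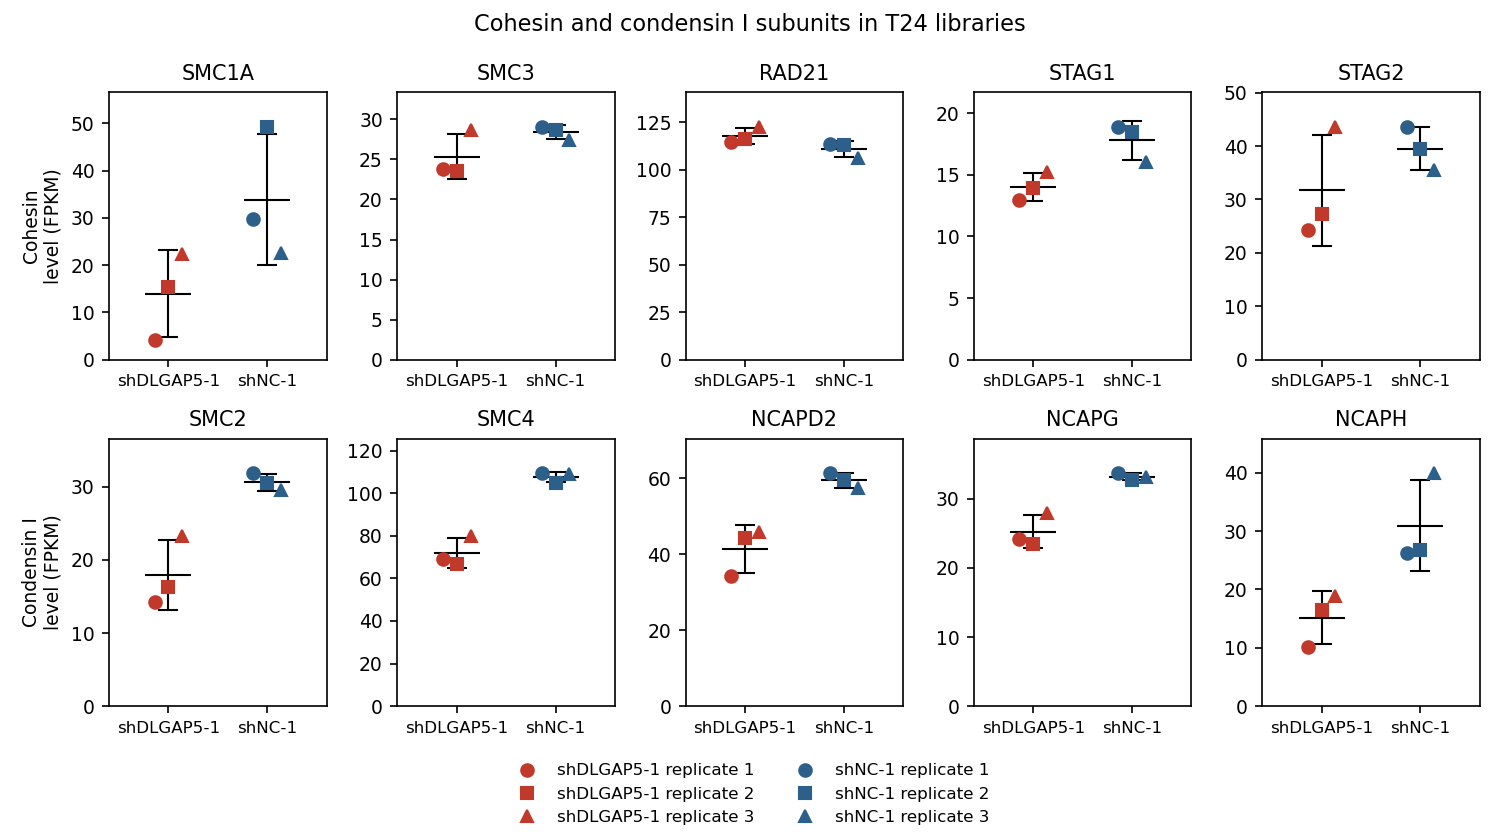
Level of each subunit gene in FPKM (vertical axes from 0, one scale per gene) in the 3 shDLGAP5-1 libraries, left in each panel, and the 3 shNC-1 libraries, right; black bars give the mean ± SD (n = 3). The groups are apart in all 5 condensin I panels of the lower row, while RAD21 in the upper row is slightly higher in shDLGAP5-1.

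SMC2 and SMC4 form the ATPase pair of condensin and are shared by condensin I and II. SMC4 (ENSG00000113810, chromosome 3, 160399274 to 160434954, plus strand) had 69.0, 66.5 and 79.7 FPKM in the shDLGAP5-1 libraries, against 109, 105 and 109 FPKM in the shNC-1 libraries. The highest shDLGAP5-1 library thus lay well below the lowest shNC-1 library, and SMC4 fell by 0.58 on the log2 scale (standard error 0.11, limma adjusted p = 0.00949). SMC2 (ENSG00000136824, chromosome 9, 104094260 to 104141419, plus strand) had 14.2, 16.3 and 23.3 FPKM in the shDLGAP5-1 libraries, against 31.8, 30.5 and 29.5 FPKM in the shNC-1 libraries. Its shDLGAP5-1 libraries were spread more widely than its shNC-1 libraries but did not reach them, and SMC2 fell by 0.77 (standard error 0.18, limma adjusted p = 0.0209). Per length SMC4 was the more abundant partner everywhere, at 4.85, 4.09 and 3.42 times SMC2 in the shDLGAP5-1 libraries and 3.43, 3.44 and 3.69 times in the shNC-1 libraries, ratios that overlap.

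The 3 subunits found only in condensin I also fell. NCAPH, the kleisin that closes the ring (ENSG00000121152, chromosome 2, 96335766 to 96377091, plus strand), had 10.1, 16.5 and 19.0 FPKM in the shDLGAP5-1 libraries, against 26.2, 26.7 and 39.9 FPKM in the shNC-1 libraries. Its mean was 0.491 of that in shNC-1, and its log2 fold change of -0.998 (limma adjusted p = 0.0300, standard error 0.26) was the lowest of the 5. NCAPD2, a HEAT subunit (ENSG00000010292, chromosome 12, 6493356 to 6531955, plus strand), had 34.2, 44.2 and 45.7 FPKM in the shDLGAP5-1 libraries, against 61.2, 59.6 and 57.5 FPKM in the shNC-1 libraries. The groups were again apart, and NCAPD2 fell by 0.52 (standard error 0.13, limma adjusted p = 0.0279). NCAPG, the other HEAT subunit (ENSG00000109805, chromosome 4, 17810979 to 17844865, plus strand), had 24.2, 23.5 and 28.0 FPKM in the shDLGAP5-1 libraries, against 33.7, 32.7 and 33.2 FPKM in the shNC-1 libraries. It fell by 0.39 (standard error 0.10, limma adjusted p = 0.0357), the smallest fall of the 5, with a coefficient of variation of 9.51% among its shDLGAP5-1 libraries and 1.501% among its shNC-1 libraries. SMC4, NCAPD2 and NCAPG each overlap a gene on the other strand (IFT80 and TRIM59 for SMC4, MRPL51 for NCAPD2, LCORL for NCAPG), and reads from the shared stretches cannot be assigned.

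The SMC4 call held in all 14 alternative fits, and the other 4 condensin I calls depended on the setting. Without shDLGAP5-1 replicate 2, or without any 1 of the shNC-1 replicates 1, 2 or 3, SMC4 was the 1 subunit called, and without shDLGAP5-1 replicate 1 SMC2, SMC4 and NCAPD2 were called. Without shDLGAP5-1 replicate 3, the library with leukocyte transcripts, 6 were called, the 5 condensin I genes and STAG2. With no filter on low genes, which raised the genes tested to 31433, SMC4 alone was called. Quantile normalization lost the call of NCAPG (adjusted p = 0.0577), and a replicate block left SMC4 and NCAPH. Over all genes the lower calls numbered 1211 as reported and 702 without shDLGAP5-1 replicate 2. Without shNC-1 replicates 1, 2 and 3 in turn they numbered 522, 447 and 682. They were 965 and 1317 without shDLGAP5-1 replicates 1 and 3, 769 with no filter, 1464 with quantile normalization and 513 with the block. The fold changes of the other 4 condensin I genes kept their sign. Over all alternatives SMC2 ran from -0.96 to -0.63, NCAPD2 from -0.63 to -0.40, NCAPG from -0.49 to -0.33 and NCAPH from -1.17 to -0.75. The highest adjusted p of these 4 was 0.118, for NCAPG.

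**Figure D2:**
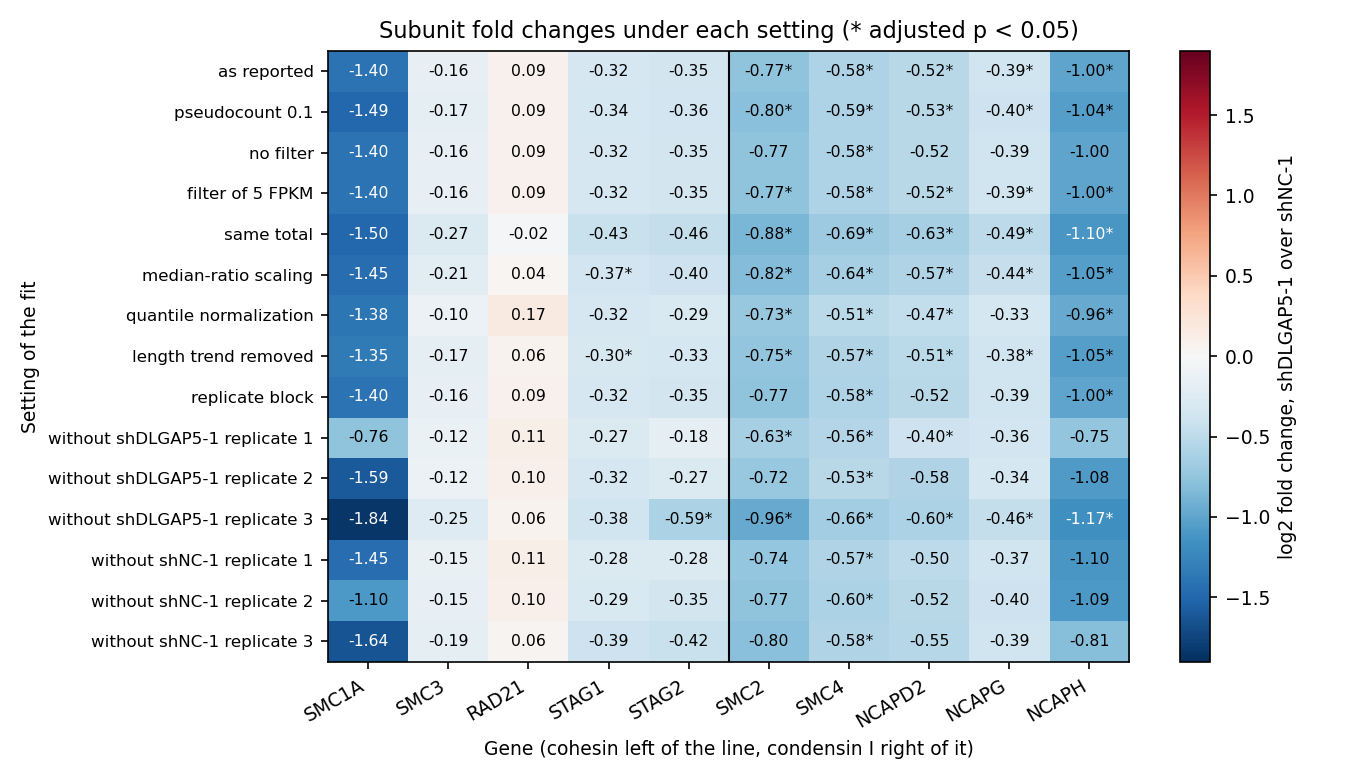
log2 fold change of each subunit gene (columns; cohesin left of the line, condensin I right of it), shDLGAP5-1 over shNC-1, in the fit as reported and in 14 alternatives (rows); colour gives the fold change and an asterisk an adjusted p under 0.05. SMC4 carries the asterisk in every row, and RAD21 has 0.09 as reported and -0.02 when every column has an equal total.

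Among the cohesin genes, RAD21, the kleisin that separase cuts at anaphase, was the most abundant, and it was the 1 subunit with a positive fold change. RAD21 (ENSG00000164754, chromosome 8, 116845935 to 116874866, minus strand) had 115, 116 and 122 FPKM in the shDLGAP5-1 libraries, against 113, 113 and 106 FPKM in the shNC-1 libraries. The groups did not overlap, but the gap between 115 and 113 was small and the fold change of 0.09 did not pass (standard error 0.09, limma adjusted p = 0.526). Its ratio had a 95% interval from 0.913 to 1.24, and with an equal total in every column its fold change was -0.02, where the median of all genes was -0.06. SMC3, the ATPase partner of SMC1A (ENSG00000108055, chromosome 10, 110567691 to 110604636, plus strand), had 23.8, 23.6 and 28.7 FPKM in the shDLGAP5-1 libraries, against 29.1, 28.7 and 27.4 FPKM in the shNC-1 libraries. The groups overlapped through shDLGAP5-1 replicate 3, and the fold change of -0.16 did not pass (95% interval of the ratio 0.745 to 1.07, limma adjusted p = 0.322).

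STAG1 and STAG2 are the alternative HEAT subunits of cohesin, and neither passed the test. STAG1 (ENSG00000118007, chromosome 3, 136336236 to 136752403, minus strand) had 13.0, 13.9 and 15.2 FPKM in the shDLGAP5-1 libraries, against 18.9, 18.5 and 16.0 FPKM in the shNC-1 libraries. The groups did not overlap, but its fold change of -0.32 did not pass (95% interval of the ratio 0.663 to 0.966, limma adjusted p = 0.0831). That interval lies below 1 but is not adjusted for the number of genes tested. STAG1 did pass with median-ratio scaling or with the length trend removed (adjusted p from 0.0304 to 0.246 over the alternatives). STAG2 (ENSG00000101972, chromosome X, 123960212 to 124422664, plus strand) had 24.2, 27.3 and 43.6 FPKM in the shDLGAP5-1 libraries, against 43.5, 39.5 and 35.4 FPKM in the shNC-1 libraries. Replicate 3 of shDLGAP5-1 was the highest of all 6, and the fold change of -0.35 did not pass (95% interval of the ratio 0.553 to 1.12, limma adjusted p = 0.275); without that library it was -0.59 (adjusted p = 0.0265). STAG2 made up 65.1%, 66.3% and 74.1% of the summed STAG1 and STAG2 FPKM in the shDLGAP5-1 libraries and 69.7%, 68.2% and 68.9% in the shNC-1 libraries. These shares overlapped (difference of the log2 ratio -0.03, exact two-sided permutation p = 1).

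SMC1A, the ATPase partner of SMC3, varied more between libraries of a group than any other subunit. SMC1A (ENSG00000072501, chromosome X, 53374149 to 53422728, minus strand) had 4.20, 15.4 and 22.4 FPKM in the shDLGAP5-1 libraries, against 29.8, 49.2 and 22.5 FPKM in the shNC-1 libraries. The groups were apart only by the gap between 22.4 and 22.5 FPKM, and the change of -1.40 on the log2 scale did not pass (limma adjusted p = 0.106, standard error 0.55). Over the alternatives it ran from -1.84 to -0.76 and passed in 0 of 14, with adjusted p from 0.0517 to 0.271. Even between shNC-1 replicates 1 and 2 it differed by 0.70 on the log2 scale, more than 96.8% of 8627 genes with a mean of at least 5 FPKM. The longest annotated SMC1A transcript has 9930 bases, the longest of the 10 genes. Relative to the shNC-1 mean on the log2 scale, SMC1A stood at -2.67, -1.015 and -0.505 in shDLGAP5-1 replicates 1 to 3. With the length trend removed it stood at -2.45, -0.966 and -0.626. The part of transcript length in its spread was not tested.

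**Figure D3:**
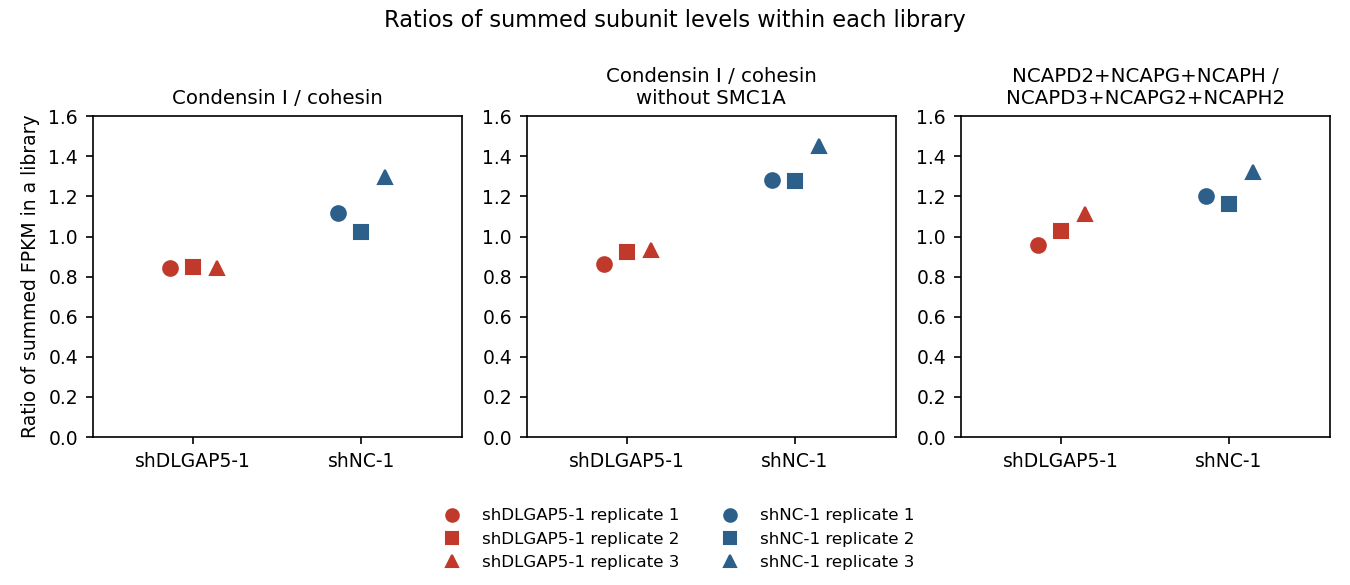
Ratios of summed FPKM within each library (vertical axes from 0): condensin I over cohesin, the same without SMC1A, and the 3 condensin I-specific over the 3 condensin II-specific subunits, with the 3 shDLGAP5-1 libraries left and the 3 shNC-1 libraries right in each panel. In each panel all shDLGAP5-1 points lie below all shNC-1 points.

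Within a library, where scaling cancels, the condensin I sum stood lower relative to the cohesin sum, of which RAD21 is the largest part, in shDLGAP5-1 cells. The summed FPKM of the 5 condensin I genes was 0.843, 0.850 and 0.843 times that of the 5 cohesin genes in the shDLGAP5-1 libraries, against 1.12, 1.02 and 1.30 times in the shNC-1 libraries. Without SMC1A the ratios were 0.864, 0.922 and 0.932 in the shDLGAP5-1 libraries, against 1.28, 1.28 and 1.45 in the shNC-1 libraries. RAD21 alone took 63.7%, 59.1% and 52.7% of the cohesin sum in the shDLGAP5-1 libraries, against 48.3%, 45.3% and 51.1% in the shNC-1 libraries, and SMC4 39.8% to 45.5% of the condensin I sum in the shDLGAP5-1 libraries, against 40.5% to 41.7% in the shNC-1 libraries. The separation rests on RAD21: with it left out of the cohesin sum, the ratios of the groups overlap. The ratios are a description, and no test was made of sums over the genes.

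The order of levels per length was led by RAD21 in both groups, followed by SMC4 and then NCAPD2. RAD21 and SMC4 overlapped in the shNC-1 libraries, with means of 111 and 108 FPKM, and were apart in the shDLGAP5-1 libraries, with means of 118 and 71.8 FPKM. SMC1A was last in shDLGAP5-1, at 13.98 FPKM, with STAG1, NCAPH and SMC2 overlapping it, and STAG1 was last in shNC-1, at 17.8 FPKM, apart from SMC3 above it at 28.4 FPKM.

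All 10 subunits had their highest value of the 3 shDLGAP5-1 libraries in replicate 3, as did 43.1% of all tested genes. The lowest value was in replicate 1 for 7 of them, as for 45.8% of all tested genes, and in replicate 2 for SMC3, SMC4 and NCAPG. Relative to the shNC-1 mean, the median log2 level of the condensin I genes was -0.78, -0.69 and -0.38 in shDLGAP5-1 replicates 1 to 3, and that of the cohesin genes -0.42, -0.33 and 0.01. Long transcripts as a whole were lowest in replicate 1 and highest in replicate 3. At 6000 bases the trend of log2 level on transcript length was -0.15, 0.01 and 0.13 in shDLGAP5-1 replicates 1 to 3, and the longest transcripts of the subunits run from 2952 to 9930 bases. With that trend removed 5 of the 10 were highest in shDLGAP5-1 replicate 3 and 4 in replicate 1, and 6 were called lower, the 5 condensin I genes and STAG1. The part of the leukocyte transcripts of replicate 3 in this order was not tested.

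Condensin II, which is nuclear through interphase, shares SMC2 and SMC4 and has 3 subunits of its own. Of these 1 passed, where 9.52% of all tested genes were called lower and 18.3% lay lower without overlap. NCAPG2, a HEAT subunit, had 16.8, 26.1 and 28.8 FPKM in the shDLGAP5-1 libraries, against 38.4, 39.0 and 35.8 FPKM in the shNC-1 libraries. It fell by 0.67 (limma adjusted p = 0.0429), a call lost in 7 of 14 alternatives. The fold change was -0.43 for NCAPD3, the other HEAT subunit, whose groups did not overlap (95% interval of the ratio 0.548 to 1.004, limma adjusted p = 0.134), and -0.07 for the kleisin NCAPH2, whose groups overlapped (0.777 to 1.18, adjusted p = 0.739). The summed NCAPD2, NCAPG and NCAPH level was 0.956, 1.03 and 1.11 times that of NCAPD3, NCAPG2 and NCAPH2 in the shDLGAP5-1 libraries, against 1.205, 1.16 and 1.32 times in the shNC-1 libraries.

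The kleisin ratio was 1 of 3 among 10 ratios of paired genes whose groups did not overlap. The levels of 43.9% of all tested genes did not overlap either, but no such share was taken over ratios of other gene pairs. NCAPH was 0.246, 0.447 and 0.613 times NCAPH2 in the shDLGAP5-1 libraries, against 0.738, 0.677 and 1.04 times in the shNC-1 libraries, so that the ratio was lower in every shDLGAP5-1 library. On the log2 scale of FPKM + 1 the ratio differed by -0.93 (exact two-sided permutation p = 0.1, the smallest possible, 0.333 adjusted over the 10 ratios compared). The others were SMC3 over SMC1A, which was higher by 1.24 and rests on the variable SMC1A, and PDS5A over PDS5B, with a difference of -0.36. The other 7 ratios overlapped, among them NCAPD2 over NCAPD3 (difference -0.09), NCAPG over NCAPG2 (0.29) and SMC4 over SMC2 (0.19), and 0 of the 10 could pass, since an exact p of 0.1 is the smallest.

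Genes that act on the 2 complexes were read against the 9.52% of all tested genes called lower and the 15.3% called higher. Of 10 genes of cohesin loading, release and acetylation 1 fell and 0 rose, with a median fold change of -0.01. The 1 was CDCA5 (sororin, which protects acetylated cohesin until mitosis), with 32.8, 36.2 and 32.4 FPKM in the shDLGAP5-1 libraries, against 53.9, 55.6 and 60.0 FPKM in the shNC-1 libraries (log2 fold change -0.72, limma adjusted p = 0.00388). The loader NIPBL (-0.02), the release factor WAPL (0.03) and the acetyltransferase ESCO2 (0.01) did not pass. Neither did CTCF, the DNA-binding protein at which cohesin loops stop, at -0.31 (adjusted p = 0.0842). The intervals of the ratio ran from 0.746 to 1.30 for NIPBL and from 0.813 to 1.28 for WAPL.

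Of 7 genes of cohesin cleavage and protection 4 fell and 0 rose, with a median fold change of -0.68. PLK1, a kinase that drives cohesin off chromosome arms, had 18.1, 23.3 and 23.96 FPKM in the shDLGAP5-1 libraries, against 53.8, 55.7 and 51.5 FPKM in the shNC-1 libraries (log2 fold change -1.27, limma adjusted p = 0.00133). The kinase BUB1, which marks centromeres for shugoshin, fell by 0.94, ESPL1 (separase, the protease that cuts RAD21) by 0.69 and SGO2, a shugoshin, by 0.68, the last a call lost in 7 of 14 alternatives. PTTG1 (securin, the inhibitor of separase) stood at -0.26, SGO1 at -0.41 and the phosphatase scaffold PPP2R1A at -0.35, and none of these 3 passed.

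Of 9 condensin partners and regulators 4 fell and 0 rose, with a median fold change of -0.20. CCNB1, cyclin B1, had 58.9, 59.5 and 55.0 FPKM in the shDLGAP5-1 libraries, against 116, 116 and 130 FPKM in the shNC-1 libraries (log2 fold change -1.05, limma adjusted p = 0.00113). The chromosome kinesin KIF4A fell by 0.70, the kinase AURKB by 0.59 and the chromosome coat protein MKI67 by 1.32, and the calls of AURKB and MKI67 were lost in 7 and 6 of 14 alternatives. TOP2A, the topoisomerase of mitotic chromosomes, at -0.20, and CDK1, the kinase that phosphorylates condensin, at 0.16, did not pass, with intervals of the ratio from 0.720 to 1.05 and from 0.900 to 1.39.

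**Figure D4:**
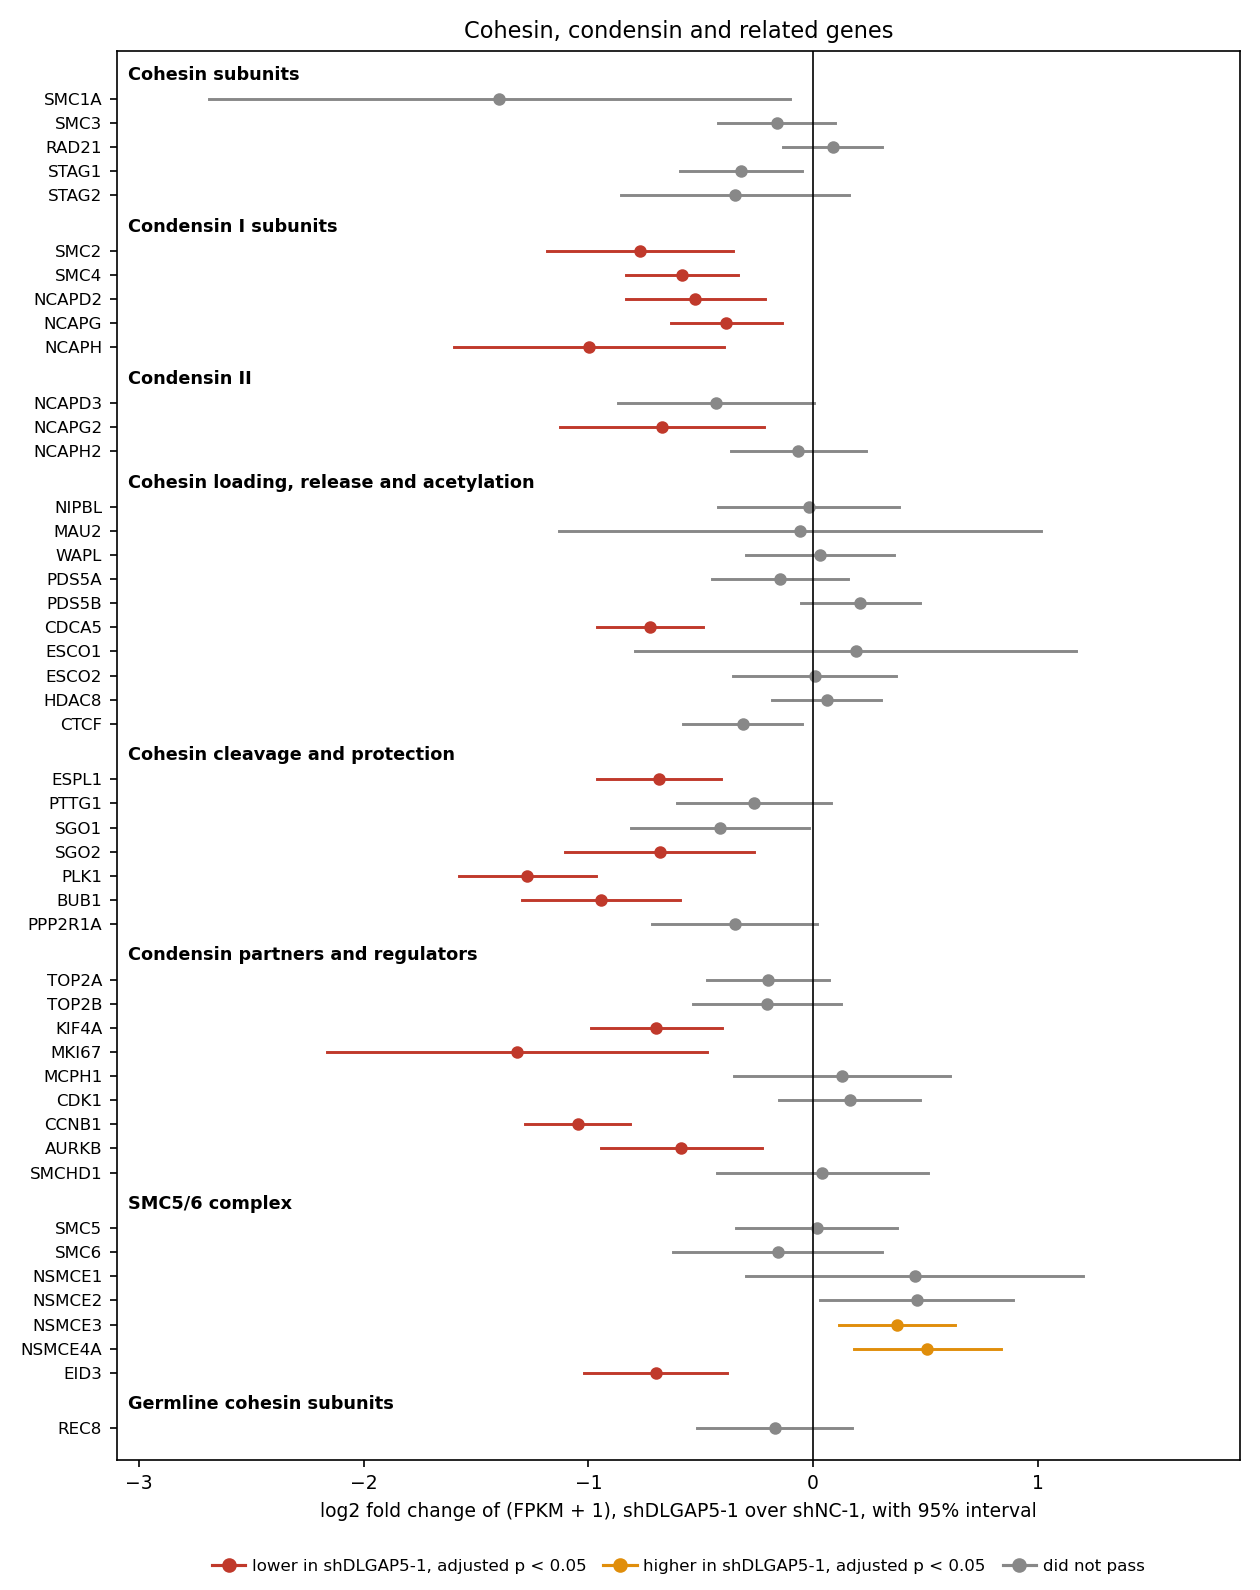
log2 fold change of FPKM + 1 with its 95% interval (horizontal axis), shDLGAP5-1 over shNC-1, for the 10 subunits and 37 tested related genes (rows, by list). Red points fell and orange points rose at an adjusted p under 0.05, and grey points did not pass: all 5 condensin I genes are red, the 5 cohesin genes grey, and the 2 rises are NSMCE3 and NSMCE4A.

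SMC5/6 is a further SMC complex, which works in DNA repair. Of its 7 genes 2 rose and 1 fell, with a median fold change of 0.37, where 15.3% of all tested genes were called higher and 9.52% lower. NSMCE4A, its kleisin, had 27.8, 20.3 and 24.7 FPKM in the shDLGAP5-1 libraries, against 15.9, 15.8 and 18.3 FPKM in the shNC-1 libraries (log2 fold change 0.51, limma adjusted p = 0.0361). NSMCE3, a partner of the kleisin, rose by 0.37, but the calls of NSMCE4A and NSMCE3 were lost in 9 of 14 and 12 of 13 alternatives. The SMC proteins themselves, SMC5 at 0.02 and SMC6 at -0.16, did not pass. EID3, a relative of NSMCE4A, fell by 0.70 at a low level, 1.28 to 1.36 FPKM in shDLGAP5-1 and 2.28 to 3.35 FPKM in shNC-1; it lies within TXNRD1 on the same strand, with which it can share reads. TXNRD1, a thioredoxin reductase, had 56.1, 83.3 and 109.5 FPKM in the shDLGAP5-1 libraries, against 477, 584 and 533 FPKM in the shNC-1 libraries, and its part in the EID3 result was not tested. Of the 4 germline cohesin subunits, REC8 was at 2.17 to 2.86 FPKM in shDLGAP5-1 and 2.52 to 3.60 FPKM in shNC-1 and did not pass, and SMC1B, RAD21L1 and STAG3 lay at or below 0.167 FPKM in all 6 libraries and were not tested.

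The genes whose levels followed the mean condensin I profile most closely over the 6 libraries, among 8583 with a mean of at least 5 FPKM outside the lists, were BUB3, U2AF2, DKC1, CDCA2 and TXNDC5, with Pearson r of 0.997 to 0.998. The closest to the cohesin profile were CDK6, PPTC7, SLAIN2, TMED8 and WNK1, with r of 0.991 to 0.995. CDCA2, for one, had 4.78, 5.61 and 7.95 FPKM in the shDLGAP5-1 libraries, against 12.8, 11.5 and 12.2 FPKM in the shNC-1 libraries. The 6 points share library scaling and depth and fall into 2 groups, and the r is a description.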

How the data were processed

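Messenger RNA libraries of T24 cells, 3 with shDLGAP5-1 and 3 with shNC-1, were grouped by their titles. The authors deposited 1 table of normalized values, which are not whole and were taken as FPKM. The smallest step of low single-exon genes had a slope of -1.011 to -0.997 on transcript length (log2 scales). Values were picked for this step by their product with length, which fixed the slope in advance, so it cannot decide the unit. The header names no unit. For aligner, annotation and strandedness, nothing is given in the sources used here. Low values were whole fragments within 0.1 for 25.6% to 36.2% per library, so no count test was run and the limma test of the design was used. Columns without the letters NC were given to shDLGAP5-1, the only other group.

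Coordinates are those of the table; 51014 of 58552 identifiers found in GENCODE release 29 (87.1%) have the same GRCh38 coordinates. Genes reaching 1 FPKM in 3 or more libraries entered limma 3.58.1 (trended variance, group as the only term) in R 4.3.3 on log2(FPKM + 1), a scale that understates changes of low genes; the procedure was tested on simulated data. Transcript lengths are the longest in GENCODE 29, known for 99.9% of tested genes. All subunits, DLGAP5 and 40 related genes in 6 lists could be named; the members and lists were chosen with earlier results of these data known. Genes overlapping the subunits can share reads. Alternatives were another pseudocount (0.1), other filters (none, 5 FPKM), other scalings, removal of a lowess length trend (span 0.3), a replicate block and each library left out. Protein motifs were not searched. FPKM intervals cover the spread between libraries.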

Additional observations from a re-analysis of the deposited data

How the results depend on the processing

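Of all tested genes, 1211 were called lower and 1944 higher as reported (61.6% of calls higher). The lower count was 769 with no filter and 1890 with the length trend removed, and the higher count 1168 with a filter of 5 FPKM and 1282 with an equal total per column (48.1% of calls higher). The share of calls that were higher was 52.0% with the filter of 5 FPKM, 50.8% with quantile normalization and 50.1% with the length trend removed. Leaving out 1 replicate gave 447 to 1317 lower and 879 to 1489 higher, in fits with fewer samples. Of the 10 subunits 5 were called lower as reported, 1 with no filter, 4 with quantile normalization, 6 with median-ratio scaling or the length trend removed and 1 to 6 without 1 replicate, and 0 were called higher in any of the 14 alternatives. Of 37 related genes 11 were lower as reported, 7 with no filter and 7 to 11 without 1 replicate. Their 2 rises numbered 0 with no filter, same-total or median-ratio scaling, 1 with the filter of 5 FPKM, quantile normalization or the length trend removed, and 0 to 1 without 1 replicate. Of the 10 ratios of paired genes 3 had groups that did not overlap as reported and 3 to 6 without 1 replicate, with 6 when shDLGAP5-1 replicate 3 was left out. Leaving out a library cannot lower this count, so it is no check of the 3. The median of all genes moved most, by -0.0932, with an equal total per column. The cause of these shifts was not tested.

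Deviations of same-numbered libraries correlated at -0.155, 0.021 and -0.157, and those of differently numbered libraries at -0.065 to 0.193. Whether the libraries were made in pairs cannot be told from this, since the shDLGAP5-1 numbers come from the column names alone. With a replicate block 513 genes were lower and 951 higher, with 2 subunits (SMC4 and NCAPH), 7 related genes lower and 0 related genes higher. The block leaves fewer residual degrees of freedom. By the approximate depths the shDLGAP5-1 libraries were the shallower ones, at 13700000 to 18100000 fragments, and would give fewer fragments to low genes such as EID3.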

Other observations

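Of the genes that overlap the subunits in the genome, IFT80 and LCORL rose where their subunit fell, and MRPL51 fell with its subunit. Over all tested genes, 15.3% were called higher and 9.52% lower. Whether genes at these loci depart from those shares was not tested. The genes described were chosen after their values were seen. UTP23 at RAD21 (log2 fold change 0.09), PCCB at STAG1 (0.36) and AC006064.5 within NCAPD2 on the same strand (-1.66) did not pass. Their limma adjusted p was 0.546, 0.440 and 0.0813. IFT80, a gene of intraflagellar transport on the opposite strand, overlaps the 5′ end of SMC4 by 607 bases. It had 16.1, 13.6 and 19.1 FPKM in the shDLGAP5-1 libraries, against 11.7, 10.5 and 10.2 FPKM in the shNC-1 libraries, and rose by 0.54 on the log2 scale (limma adjusted p = 0.0337) where SMC4 fell by 0.58. LCORL, which overlaps the 3′ end of NCAPG by 3667 bases on the opposite strand, had 4.38, 4.95 and 5.36 FPKM in the shDLGAP5-1 libraries, against 3.32, 2.99 and 3.20 FPKM in the shNC-1 libraries, a rise of 0.50 (adjusted p = 0.0237) where NCAPG fell by 0.39.

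MRPL51, a mitochondrial ribosomal protein gene that overlaps the 5′ end of NCAPD2 by 486 bases on the opposite strand, fell with it, by 0.47 (limma adjusted p = 0.0278). It had 73.3, 74.9 and 78.4 FPKM in the shDLGAP5-1 libraries, against 96.7, 98.8 and 121 FPKM in the shNC-1 libraries. TRIM59, which overlaps the 3′ end of SMC4 by 2510 bases, had 1.04, 8.35 and 9.52 FPKM in the shDLGAP5-1 libraries, against 11.9, 12.2 and 10.0 FPKM in the shNC-1 libraries, and did not pass (log2 fold change -1.08, adjusted p = 0.214). Without a stated use of strand, reads from overlapping stretches cannot be assigned to either gene.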
